A study of Mus musculus with 10 samples.

Results

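The vacuolar H+-ATPase (V-ATPase) is a proton pump of many subunits, and 5 of them are made from alternative genes that distinguish intercalated cells (ICs), the acid-base regulating cells of the kidney collecting duct (CD), from other cells. Transcripts of 10 genes were followed, picked by symbol as 5 pairs of an IC isoform and its ubiquitous counterpart: Atp6v1b1 and Atp6v1b2, Atp6v1c2 and Atp6v1c1, Atp6v1g3 and Atp6v1g1, Atp6v0d2 and Atp6v0d1, Atp6v0a4 and Atp6v0a1. All 10 were among the 39273 genes of the table and all passed the filter on low counts.

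The V1 sector of the pump sits in the cytosol and hydrolyses ATP, and the V0 sector lies in the membrane and carries protons across it. Every cell uses the pump to acidify lysosomes, endosomes and the Golgi, whereas ICs also place it in large amounts in the plasma membrane to secrete acid or base. Subunit B belongs to the catalytic head of V1, C and G belong to the stalks that hold the sectors together, d sits at the base of the central stalk, and a is the large V0 subunit past which protons move. In humans, loss of the kidney B or a isoform causes distal renal tubular acidosis with or without deafness.

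RNA-seq was compared between mouse ureteric bud (UB) organoids kept in UB culture medium to day 5, day 10 or day 20, CD organoids, and adult CD cells (mCD), with 2 libraries in each of the 5 groups. UB organoids were grown from E11.5 buds of Wnt11-RFP +/- embryos on a C57BL/6 x Swiss Webster background, with RFP marking tip progenitors that express Wnt11. CD organoids were UB organoids moved at day 10 into a differentiation medium and kept there for a week. Per the study, this medium holds FGF9, Y27632, a Notch inhibitor, a MEK inhibitor and the hormones aldosterone and vasopressin. Adult mCD cells were sorted by FACS from 2-month-old Hoxb7-Venus mice, in which the Hoxb7 promoter drives the reporter in the ureteric lineage, although the sample labels of these libraries carry the embryonic age and Wnt11-RFP genotype of the organoids. The labels do not say whether the 2 libraries of a group came from separate cultures or animals, so p-values measure only the spread between these libraries.

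Library totals ran from 11913613 to 24536676 counts, and 3 counts, taken as the floor of detection, were worth 0.109 to 0.241 CPM (counts scaled to a common library size, here with TMM factors). The adult mCD libraries also held transcripts of other nephron segments: 8 of 8 proximal tubule markers were higher than in CD organoids, with a summed level of 5510 to 6680 CPM against 7.05 to 13.2 CPM, and 4 of 4 loop of Henle markers summed to 3390 to 3590 CPM against 7.98 to 11.3 CPM. Distal convoluted tubule markers (465 to 514 against 1.5 to 2.65 CPM) and endothelium markers (499 to 506 against 1.85 to 1.93 CPM) were higher too. The part of these cells in the adult levels below was not tested. In bulk libraries, fewer cells of a type and less RNA per cell cannot be told apart. By immunostaining, the study counted a larger IC portion in its CD organoids than in the CD of neonatal and adult kidneys. Those counts were not made on these libraries.

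Proximal promoter sequence was at hand for 6 of the 10 genes (RefSeq, GRCm38.p6), and 5 windows are shown because the IC isoforms moved together and because the windows differ in CpG content. Each holds the 250 bases before the RefSeq start of transcription, 5′ to 3′ on the strand of the gene, with capitals marking a match to a motif searched. The starts of Atp6v1b1 and Atp6v1c2 lie inside the annotated bounds of the gene. No window was at hand for Atp6v1b2, Atp6v1c1, Atp6v1g1 and Atp6v0d2, and that of Atp6v0a1 is not shown because the bases after its start were found in no GENCODE transcript of the gene.
Atp6v1b1 (chr6:83742767-83743016, plus strand): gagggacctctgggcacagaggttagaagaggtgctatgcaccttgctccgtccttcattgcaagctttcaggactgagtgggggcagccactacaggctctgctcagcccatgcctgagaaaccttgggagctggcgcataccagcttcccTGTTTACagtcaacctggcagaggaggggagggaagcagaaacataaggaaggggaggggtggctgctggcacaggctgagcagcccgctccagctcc
Atp6v1c2 (chr12:17324731-17324980, minus strand): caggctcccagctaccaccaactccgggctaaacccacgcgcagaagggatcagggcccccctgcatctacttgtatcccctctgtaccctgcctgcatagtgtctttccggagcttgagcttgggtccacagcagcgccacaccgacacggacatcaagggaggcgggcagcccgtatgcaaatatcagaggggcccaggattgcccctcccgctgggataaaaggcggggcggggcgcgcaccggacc
Atp6v1g3 (chr1:138273488-138273737, plus strand): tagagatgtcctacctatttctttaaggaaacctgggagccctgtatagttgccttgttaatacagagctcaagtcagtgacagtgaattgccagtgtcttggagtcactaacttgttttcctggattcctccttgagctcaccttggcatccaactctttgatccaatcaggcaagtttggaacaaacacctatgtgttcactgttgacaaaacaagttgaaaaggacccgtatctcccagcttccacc
Atp6v0a4 (chr6:38124587-38124836, minus strand): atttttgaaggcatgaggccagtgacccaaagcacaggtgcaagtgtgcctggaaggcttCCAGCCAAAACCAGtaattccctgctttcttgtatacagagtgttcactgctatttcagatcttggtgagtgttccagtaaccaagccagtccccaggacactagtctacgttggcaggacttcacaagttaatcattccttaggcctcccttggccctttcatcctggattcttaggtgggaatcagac
Atp6v0d1 (chr8:105566065-105566314, minus strand): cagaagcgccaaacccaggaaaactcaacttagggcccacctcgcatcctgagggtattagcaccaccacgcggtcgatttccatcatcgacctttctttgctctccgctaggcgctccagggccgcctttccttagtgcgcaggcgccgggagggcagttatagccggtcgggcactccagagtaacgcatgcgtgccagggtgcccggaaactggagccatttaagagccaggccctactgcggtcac

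Of the IC isoforms with a window, Atp6v1b1, Atp6v1g3 and Atp6v0a4 held 3, 1 and 1 CpG dinucleotides, and Atp6v1c2 held 15. The ubiquitous isoforms Atp6v0d1 and Atp6v0a1 held 18 and 4, and the median over the 32851 windows of the table was 6. Both strands were searched for the core read by forkhead factors such as Foxi1, either as TGTTTAC or in its variant form TGTTTGC. The other motifs were the E-box CACGTG, which is also the centre of the longer lysosomal gene element TCACGTGA, and the motif of the Tfcp2 family, which is a pair of CCAG boxes with 6 bases of any kind between them. TGTTTAC was found in the Atp6v1b1 window, 98 to 92 bases before the start, and in 3.17% of all windows. CCAGCCAAAACCAG, a match to the Tfcp2 family motif, was found in the Atp6v0a4 window, 190 to 177 bases before the start, and that motif was in 2.78% of all windows. The forkhead variant TGTTTGC was in none of the 6 windows and in 4.30% of all windows. Neither the E-box nor the lysosomal gene element was in any of the 6, and they were in 6.02% and 0.785% of all windows. These matches are descriptions of letters and not of bound sites.

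The first question was whether the IC isoforms appear when UB organoids become CD organoids, and whether their ubiquitous partners change with them. All 5 IC isoforms rose from at or near the floor in UB organoids to between 127 and 429 CPM in the CD organoid libraries. In the same step 4 of 5 stroma markers (summed level of 18.8 to 24.7 CPM at day 10 and 125 to 238 CPM in CD organoids) and 8 of 10 principal cell markers (142 to 211 and 1500 to 1660 CPM) were called higher, and their part in the changes below was not tested. The 5 ubiquitous isoforms rose by 1.16-fold to 2.48-fold. Calls required more than a 4-fold difference with an adjusted p no higher than 0.01, and a looser rule marked genes as changed up to an adjusted p of 0.05 whatever the fold (edgeR quasi-likelihood test with Benjamini-Hochberg adjustment over 24410 genes). Against UB organoids of day 10, from which the CD organoids were made, 5 of 5 IC isoforms and 0 of 5 ubiquitous isoforms were called, all higher, where 4.96% of all tested genes were called higher. At the looser rule all 10 were higher, where 22.1% of all genes were. The CD organoid libraries, like those of day 20, share the form of their deposited zero values with adult mCD and not with day 10. In comparisons with day 10, here and below, the change of medium, the added time in culture and the way the libraries were processed therefore cannot be told apart. Against UB organoids of day 20, the same 5 were called, where 4.74% of all genes were called higher, and 2 of the 5 ubiquitous isoforms, Atp6v1c1 and Atp6v0d1, rose at the looser rule, which 42.2% of all genes met in either direction.

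**Figure D1:**
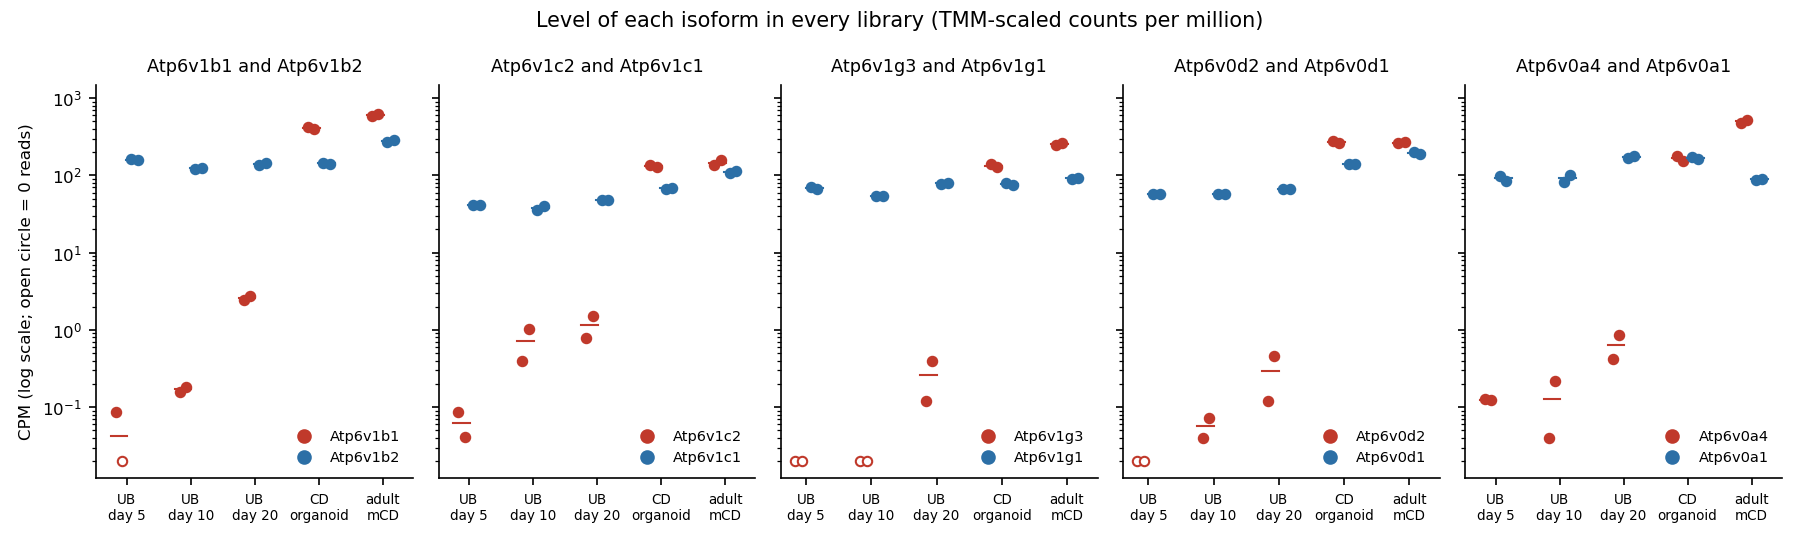
Level of each isoform in TMM-scaled CPM (log axis) in the 10 libraries, 1 panel for each pair, with a dot for each library, a bar for the group mean and an open circle at the bottom for a library with 0 reads. The IC isoforms (red) reach at most 2.78 CPM in the UB organoid libraries and at least 127 CPM in the CD organoid and adult mCD libraries, while the ubiquitous isoforms (blue) lie between 35.8 and 289 CPM throughout.

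In CPM, the IC isoform of subunit B reached the highest level of the 5. Atp6v1b1 (ENSMUSG00000006269, chr6:83742990-83758855, plus strand) had 0.0854 and 0 CPM at day 5, 0.159 and 0.182 CPM at day 10, 2.43 and 2.78 CPM at day 20, 429 and 400 CPM in CD organoids and 595 and 616 CPM in adult mCD. The 5 groups followed each other without overlap, and the step into CD organoids was the widest of them. Its log2 fold change was 10.85 (SE 0.165) against day 10 and 7.29 (SE 0.129) against day 20, with edgeR adjusted p of 2.74e-13 and 9.58e-13. The SEs and 95% intervals given here and below were back-calculated from the test statistic and can be too small where reads are few. Atp6v1b2 (ENSMUSG00000006273, chr8:69088646-69113711, plus strand), the B subunit of lysosomal pumps, had 162 and 156 CPM at day 5, 122 and 124 at day 10, 137 and 143 at day 20, 146 and 139 in CD organoids and 268 and 289 in adult mCD. The CD organoid libraries overlapped with those of day 20, and the adult libraries were the highest. Atp6v1b2 rose by 0.21 on the log2 scale (SE 0.0705, edgeR adjusted p = 0.0243) against day 10, a rise that missed the threshold with libraries scaled by their totals alone (log2 0.12, adjusted p = 0.183), and its log2 fold change against day 20 was 0.02 (95% interval -0.13 to 0.18), or -0.04 scaled by totals.

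Subunit C links the stalks of V1 to V0 and is the subunit that is let go when the pump comes apart. Atp6v1c2 (ENSMUSG00000020566, chr12:17284721-17329359, minus strand) had 0.0854 and 0.0408 CPM at day 5, 0.397 and 1.02 at day 10, 0.789 and 1.52 at day 20, 138 and 128 in CD organoids and 135 and 158 in adult mCD. The CD organoid and adult libraries overlapped, and all 4 lay far above the UB organoids, whose day 10 and day 20 libraries overlapped too. Its log2 fold change was 7.43 (SE 0.212) against day 10 and 6.80 (SE 0.216) against day 20, with edgeR adjusted p of 1.23e-11 and 4.67e-11. Atp6v1c2 was thus the IC isoform with the smallest fold change in both comparisons. Atp6v1c1 (ENSMUSG00000022295, chr15:38661933-38692446, plus strand) had 41.1 and 40.9 CPM at day 5, 35.8 and 39.6 at day 10, 47.3 and 47.7 at day 20, 67.0 and 68.7 in CD organoids and 107 and 113 in adult mCD. The CD organoid libraries lay above all UB organoid libraries and below the adult ones. Atp6v1c1 rose by 1.80-fold against day 10 and 1.43-fold against day 20, with edgeR adjusted p of 5.73e-07 and 8.85e-05.

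Subunit G is part of the peripheral stalk, and Atp6v1g3 is its kidney form. Atp6v1g3 (ENSMUSG00000026394, chr1:138273738-138289462, plus strand) had no read in the 4 libraries of days 5 and 10, which allows up to 0.109 to 0.128 CPM. It had 2 and 6 reads (0.121 and 0.397 CPM) at day 20, 139 and 127 CPM in CD organoids and 244 and 261 CPM in adult mCD. The level in CD organoids was at least 1170-fold higher than the floor of day 10, taken as 3 counts in each library. Against day 20 the log2 fold change was 8.76 (SE 0.190, edgeR adjusted p = 3.04e-11). Atp6v1g1 (ENSMUSG00000039105, chr4:63544772-63550750, plus strand), the G form of most cells, had 71.2 and 67.1 CPM at day 5, 54.2 and 54.3 at day 10, 77.0 and 80.6 at day 20, 80.6 and 74.4 in CD organoids and 89.5 and 93.1 in adult mCD. Its lowest libraries were those of day 10, and the CD organoid libraries overlapped with those of day 20. Atp6v1g1 rose by 1.43-fold against day 10 (edgeR adjusted p = 4.88e-05), and its log2 fold change against day 20 was -0.02 (95% interval -0.18 to 0.14).

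The V0 subunit d couples the rotor to the central stalk. Atp6v0d2 (ENSMUSG00000028238, chr4:19876841-19922605, minus strand), the form of ICs and osteoclasts, had no read at day 5, 1 and 2 reads at day 10 (0.0397 and 0.0729 CPM), 2 and 7 reads at day 20 (0.121 and 0.463 CPM), 279 and 266 CPM in CD organoids and 262 and 269 CPM in adult mCD. The CD organoid libraries overlapped with the adult ones, and the UB organoid libraries were at or near the floor. From the counts, CD organoids held 4790 times the level of day 10, with an exact interval of 1640 to 23200 that covers counting error only. Against day 20 the log2 fold change was 9.65 (SE 0.175, edgeR adjusted p = 2.82e-12). A list of 9 macrophage and osteoclast genes summed to 46.4 to 53.3 CPM in CD organoids, against 6.74 to 7.91 CPM at day 10 and 68.2 to 75.1 CPM in adult mCD, and 5 of the 9 had at most 3 reads in each CD organoid library. Adgre1 and C1qa had no read there, Csf1r and the osteoclast enzyme Acp5 at most 0.285 CPM and Ctsk at most 0.641 CPM, while Ptprc stood at 43.7 and 37.4 CPM and Cd68 at 8.19 and 8.66 CPM, 2.72-fold above day 10 (edgeR adjusted p = 0.000732). The part of such cells in the level of Atp6v0d2 was not tested. Atp6v0d1 (ENSMUSG00000013160, chr8:105524465-105566047, minus strand) had 57.8 and 58.1 CPM at day 5, 56.9 in both libraries of day 10, 66.8 and 66.9 at day 20, 141 in both CD organoid libraries and 202 and 190 in adult mCD. Its groups did not overlap from day 10 onwards. Among the ubiquitous isoforms Atp6v0d1 had the largest rise, 2.48-fold against day 10 and 2.12-fold against day 20, with edgeR adjusted p of 1.86e-09 and 1.72e-08.

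Subunit a takes the pump to its membrane, and Atp6v0a4 is the form of the IC plasma membrane. Atp6v0a4 (ENSMUSG00000038600, chr6:38048483-38124586, minus strand) had 0.128 and 0.122 CPM at day 5, 0.0397 and 0.219 at day 10, 0.425 and 0.859 at day 20, 177 and 155 in CD organoids and 475 and 525 in adult mCD. The CD organoid libraries stood well below the adult ones, further than for any other IC isoform. Its log2 fold change was 9.79 (SE 0.212) against day 10 and 7.92 (SE 0.193) against day 20, with edgeR adjusted p of 1.80e-12 and 5.64e-12. With 1 library left out the value against day 10 ran from 9.25 to 10.75, wider than its 95% interval of 9.34 to 10.25. Atp6v0a4 overlaps Tmem213, which had 373 and 267 reads in CD organoids, 1287 and 1323 in adult mCD and at most 5 in any UB organoid library, and the strand setting of the counting is not given in the sources used here, so what overlap could have moved between them was not tested. Pdia6, which overlaps Atp6v1c2, and Slc18a1, which overlaps Atp6v1b2, are under the same limit. Atp6v0a1 (ENSMUSG00000019302, chr11:101009452-101063719, plus strand), which is abundant in neurons and other cells, had 97.4 and 85.6 CPM at day 5, 83.1 and 100 at day 10, 169 and 177 at day 20, 174 and 165 in CD organoids and 87.3 and 91.0 in adult mCD. It was the member whose high groups were UB organoids of day 20 and CD organoids, and whose adult libraries overlapped with the early UB organoids. Atp6v0a1 rose by 1.86-fold against day 10 (edgeR adjusted p = 2.31e-06), and its log2 fold change against day 20 was -0.02 (95% interval -0.22 to 0.17).

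**Figure D2:**
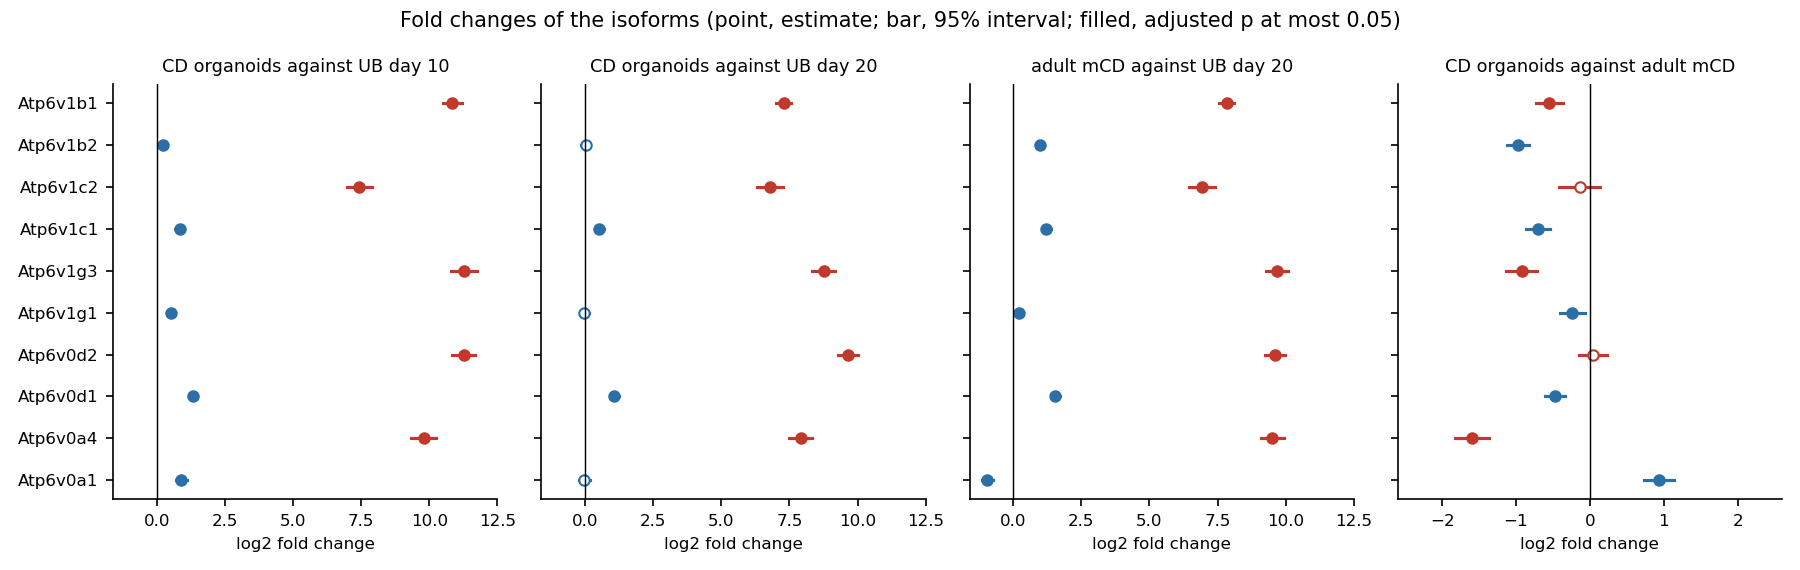
Log2 fold change (point) with its 95% interval (bar) for the 10 isoforms in 4 comparisons, with filled points at an edgeR adjusted p of at most 0.05 and a narrower axis in the last panel. The IC isoforms (red) sit between 6.80 and 11.27 in the first 3 panels and the ubiquitous isoforms (blue) between -0.96 and 1.55, while both kinds sit between -1.59 and 0.93 in CD organoids against adult mCD. The value of Atp6v1g3 against day 10, where it had no read, depends on the prior count of the fit. Bars were back-calculated from the test statistic and can be too narrow where reads are few.

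The balance within each pair was measured as the share of the IC isoform in the summed RPKM (reads scaled by gene length and library size) of the pair, which is free of the scaling between libraries. The pairs leave out further isoforms of subunits a and G. In CD organoids Atp6v0a2 and Tcirg1 had 6.06 and 3.11 RPKM, beside 8.07 for Atp6v0a1, and in adult mCD 6.51 and 1.51, beside 4.16. Atp6v1g2 had 1.32 and 1.35 RPKM in these groups. A share of the pair is therefore not a share of all forms of the subunit. In UB organoids the ubiquitous isoform made up nearly the whole of every pair: the IC share was at most 2.30% for Atp6v1b1, 3.11% for Atp6v1c2, 0.295% for Atp6v1g3, 0.503% for Atp6v0d2 and 1.05% for Atp6v0a4 over the 6 libraries. In CD organoids and adult mCD the IC isoform held between 48.6% and 92.6% of its pair. None of the 4 libraries overlapped with the UB organoids in any of the 5 pairs, and for each pair the two-sided exact permutation test gave p = 0.00476 for 4 against 6 libraries, the smallest p it can give. With CD organoids alone against the 6 UB organoid libraries the p was 0.0357 for each pair, again the smallest possible. Both tests shuffle single libraries, although these came as 5 groups of 2, and the side of 4 pools CD organoids with adult mCD. Their p-values therefore do not measure the spread between separate conditions or cultures.

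The share of Atp6v1b1 was 78.2% and 77.8% in the CD organoid libraries and 73.0% and 72.1% in the adult mCD libraries. Atp6v1c2 held 67.4% and 65.3% of its pair in CD organoids and 55.9% and 58.5% in adult mCD. Atp6v1g3 held 51.0% and 50.7% in CD organoids and 62.2% and 62.8% in adult mCD. For Atp6v1b1, Atp6v1c2 and Atp6v0d2 the CD organoids were thus above the adult cells, and for Atp6v1g3 and Atp6v0a4 below them, in each case without overlap. The share of Atp6v0d2 was 59.1% and 57.9% in CD organoids and 48.6% and 50.8% in adult mCD. Atp6v0a4 showed the widest gap, with 68.9% and 67.2% in CD organoids and 92.2% and 92.6% in adult mCD. The differences in mean share between CD organoids and adult mCD were 5.42, 9.18, -11.6, 8.79 and -24.4 percentage points for the B, C, G, d and a pairs. With 2 libraries on each side an exact test cannot go below p = 0.333, so these differences are given without a test.

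**Figure D3:**
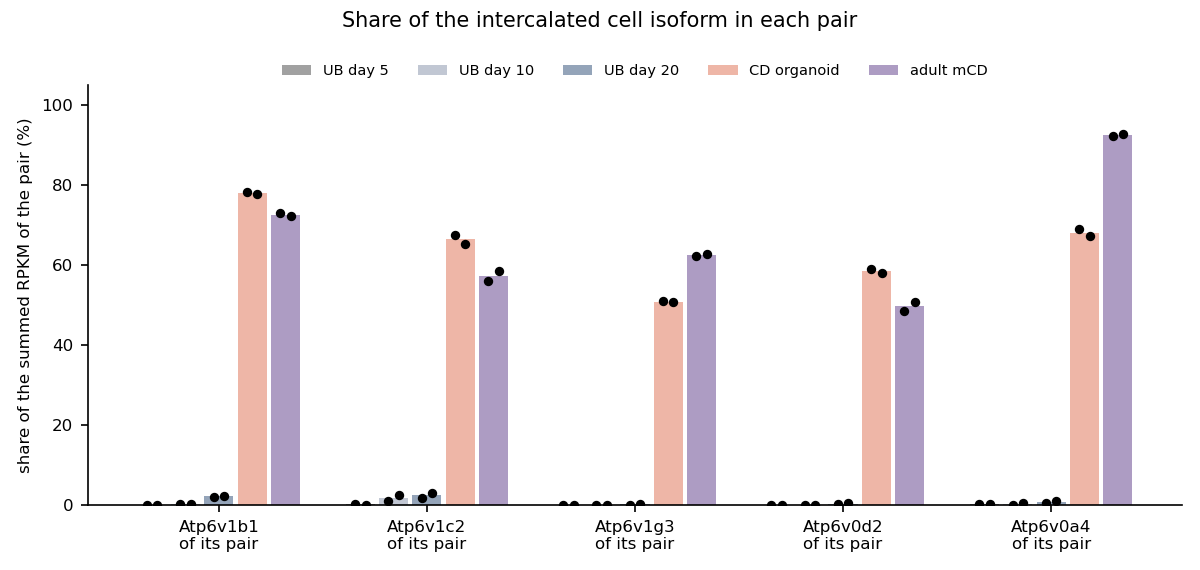
Share of the IC isoform in the summed RPKM of its pair (percent), with a bar for the group mean and a dot for each library. The UB organoid bars reach at most 2.38%, the CD organoid bars lie between 50.9% and 78.0% and the adult mCD bars between 49.7% and 92.4%.

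The share depends on the gene length behind RPKM, and the deposited length adds up the exons of every annotated transcript. With the length of the principal coding transcript, the mean share of Atp6v0a4 was 54.2% in CD organoids and 87.2% in adult mCD, and that of Atp6v0d2 in adult mCD was 46.4%. With merged exons the share of Atp6v1c2 was 83.5% in CD organoids and 77.4% in adult mCD. The side on which CD organoids lay of adult mCD was unchanged in the 5 pairs under both lengths. No stretch of 31 bases was shared between the transcripts of the partners of any pair, so reads of that length could be told apart.

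The gain of the IC isoforms also enlarged the sum of each pair. In CD organoids the summed RPKM of the B pair was 84.3 ± 3.89 (SD, n = 2), 4.46 times that of UB organoids of day 20, and in adult mCD it was 130 ± 4.24 and 6.88 times that level. The d pair reached 164 ± 3.54 RPKM in CD organoids and 184 ± 3.54 in adult mCD, which is 5.04 and 5.65 times the level of day 20. The C pair reached 4.11 and 5.15 times, and the G pair, whose ubiquitous form was already high in UB organoids, 1.98 and 3.0 times. The a pair rose to 3.02 times in CD organoids and 6.57 times in adult mCD, or to 2.14 and 4.01 times with principal transcript lengths. Of the 5 sums, that of the a pair in adult mCD changed most with the length used.

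Per length, the order of the isoforms differed between the groups. In CD organoids Atp6v0d2 stood first at 96.2 RPKM, followed by Atp6v1g3, Atp6v1g1, Atp6v0d1 and Atp6v1b1 at 72.8, 70.2, 68.2 and 65.8 RPKM, neighbours whose libraries overlapped. Atp6v1b2 at 18.6 and Atp6v0a4 at 17.2 RPKM overlapped as well, and Atp6v1c2 (14.4), Atp6v0a1 (8.07) and Atp6v1c1 (7.29) followed apart from each other. In adult mCD Atp6v1g3 stood first at 135 RPKM, and Atp6v1b1, Atp6v0d1 and Atp6v0d2 overlapped at 94.3, 92.9 and 91.8 RPKM. Atp6v1g1 (81.2), Atp6v0a4 (50.8), Atp6v1b2 (35.7), Atp6v1c2 (15.6), Atp6v1c1 (11.6) and Atp6v0a1 (4.16) followed without overlap. The order depended on the length used: with principal transcript lengths Atp6v1b1 stood first in both groups, at 208 RPKM in CD organoids and 303 RPKM in adult mCD, and Atp6v0a4 stood at 50.1 and 152 RPKM. Atp6v1c1 was the lowest in CD organoids and Atp6v0a1 the lowest in adult mCD under both lengths.

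**Figure D4:**
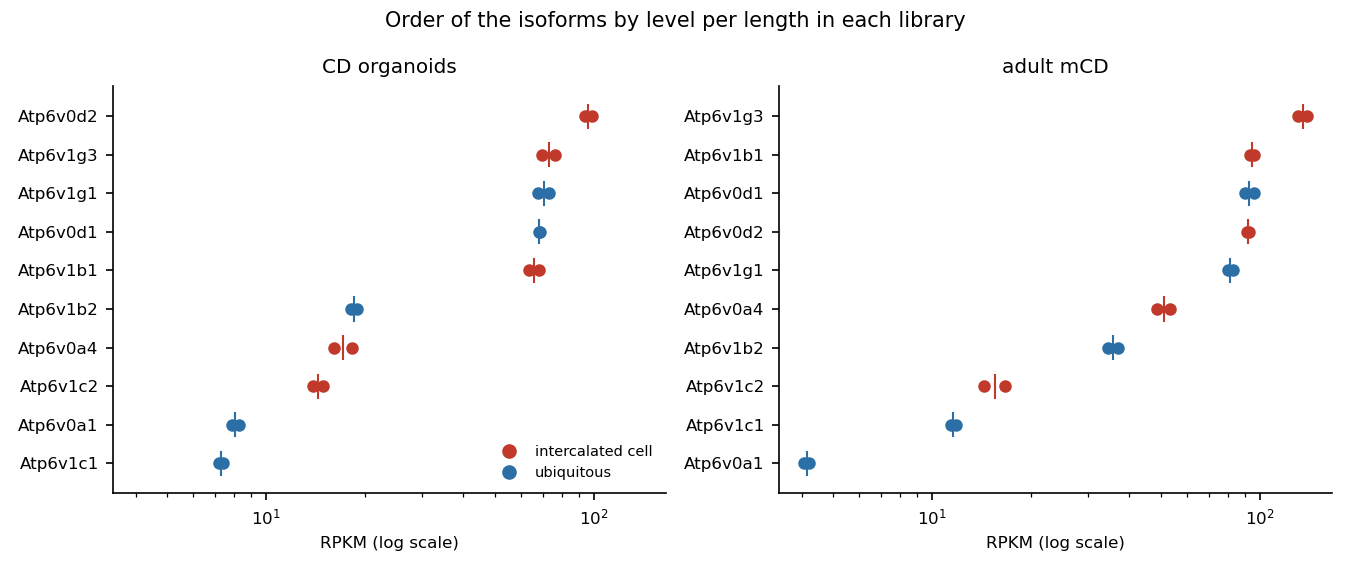
RPKM (log axis) of the 10 isoforms in the 2 CD organoid libraries (left) and the 2 adult mCD libraries (right), each panel ordered by the mean, with a dot for each library and a tick for the mean. Atp6v0d2 leads in CD organoids at 96.2 RPKM and Atp6v1g3 in adult mCD at 135 RPKM, both on the deposited length, and Atp6v1c1 and Atp6v0a1 lie at the lower end in both panels.

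How far the CD organoids reached the adult pattern was asked next. None of the 10 isoforms was called between CD organoids and adult mCD by edgeR, where 14.3% of all tested genes were called, and none by DESeq2 or limma either, while 8 of them had an unadjusted p under 0.05. The looser rule marked 8 of the 10 as changed, where 49.9% of all genes were changed: 3 IC isoforms and 4 ubiquitous isoforms were lower in CD organoids and Atp6v0a1 was higher. Atp6v0a4 differed most, at 0.332 times its adult level (log2 -1.59, SE 0.107, edgeR adjusted p = 2.83e-08). Atp6v1g3 stood at 0.528 times and Atp6v1b1 at 0.684 times the adult level, with edgeR adjusted p of 5.45e-06 and 9.44e-05. For Atp6v1b1 the difference missed the threshold with libraries scaled by their totals alone, which put the median of all genes at 0.34 (log2 -0.15, adjusted p = 0.134). With limma on the deposited TMM values none of the 3 passed the looser rule, with log2 fold changes of -1.20 (Atp6v0a4, adjusted p = 0.0506), -0.53 (Atp6v1g3, 0.293) and -0.15 (Atp6v1b1, 0.766).

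Atp6v1c2 had a log2 fold change of -0.14 between CD organoids and adult mCD (95% interval -0.42 to 0.14, edgeR adjusted p = 0.412), which turned to 0.26 under scaling by totals. Atp6v0d2 stood at 0.04 (95% interval -0.15 to 0.23, edgeR adjusted p = 0.746), at -0.01 with DESeq2 size factors, and at 0.43 with an adjusted p of 0.000802 under scaling by totals. Among the ubiquitous isoforms Atp6v1b2 was at 0.511 times, Atp6v1c1 at 0.616 times, Atp6v0d1 at 0.720 times and Atp6v1g1 at 0.849 times the adult level, with edgeR adjusted p from 6.63e-08 to 0.0172. The last of these turned to a log2 value of 0.16 under scaling by totals, and Atp6v0d1 missed the threshold there (log2 -0.08, adjusted p = 0.333). Atp6v0a1 was 1.91-fold higher in CD organoids (edgeR adjusted p = 1.80e-06), the opposite side from its partner Atp6v0a4 under every scaling. The IC transcription factor Foxi1, which drives several of these genes in mice, stood at 508 and 472 CPM in CD organoids and at 169 in both adult mCD libraries. Most of the list of 16 IC genes it belongs to went the other way. At the looser rule 10 were lower and 5 higher in CD organoids, where 49.9% of all genes changed, and their median log2 fold change was -2.19.

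Adult mCD against UB organoids of day 20 is the comparison of the kidney with the oldest progenitor culture, and it shares its UB libraries with the comparison of CD organoids with day 20. All 5 IC isoforms were called higher, where 12.3% of all genes were called higher, with log2 fold changes of 7.84 (Atp6v1b1), 6.94 (Atp6v1c2), 9.68 (Atp6v1g3), 9.61 (Atp6v0d2) and 9.51 (Atp6v0a4). The highest edgeR adjusted p among them was 9.15e-12. No ubiquitous isoform was called, and at the looser rule, which 56.4% of all genes met, 4 were higher and 1 lower. Atp6v0d1 was 2.94-fold, Atp6v1c1 2.32-fold and Atp6v1b2 1.99-fold higher in adult mCD. Atp6v1g1 was 1.16-fold higher (edgeR adjusted p = 0.0242), and turned to a log2 value of -0.24 under scaling by totals. Atp6v0a1 was lower, at 0.516 times the level of day 20 (edgeR adjusted p = 8.58e-07). Set beside each other, CD organoids and adult mCD lay at 1.02 and 1.99 times the day 20 level for Atp6v1b2, at 0.985 and 1.16 times for Atp6v1g1 and at 0.983 and 0.516 times for Atp6v0a1.

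Between the days of UB culture, the last axis of the design, the low levels of the IC isoforms differed. The day 20 libraries share the form of their deposited zero values with the CD organoid and adult mCD libraries and not with those of days 5 and 10, so culture day and the way the libraries were processed cannot be told apart. Between day 5 and day 20, 4 of the 5 IC isoforms were called higher (Atp6v1b1, Atp6v1c2, Atp6v1g3 and Atp6v0d2), where 4.68% of all genes were called higher, and Atp6v0a4 rose at the looser rule (edgeR adjusted p = 0.00644), which 45.1% of all genes met. Atp6v1b1 was the clearest of them, going from 2 and 0 reads at day 5 to 40 and 42 reads at day 20, a ratio of 62.2 with an exact interval of 16.7 to 522 (edgeR adjusted p = 1.23e-07). Its 2.43 and 2.78 CPM at day 20 were 0.401% and 0.458% of the mean adult level. Atp6v1c2 went from 2 and 1 reads to 13 and 23 reads, a ratio of 18.2 (5.75 to 92.4, edgeR adjusted p = 0.000295). The calls of Atp6v1g3 (2 and 6 reads at day 20) and Atp6v0d2 (2 and 7 reads) ended without the second library of day 20, with edgeR adjusted p of 0.0519 for both, and that of Atp6v1g3 also without either library of day 5 (0.0155 and 0.0167). Over the same days Atp6v0a1 rose by 1.89-fold. The ratios of Atp6v1c1 (1.16), Atp6v0d1 (1.15) and Atp6v1b2 (0.880) passed the looser rule but missed it without the filter on low counts (edgeR adjusted p of 0.0998, 0.0829 and 0.105), and that of Atp6v1b2 also missed it with every other scaling and tool.

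Day 20 libraries also differed in transcripts typical of adult mCD. Over 13 other genes with at least 100 CPM in adult mCD and no read at days 5 and 10, the median level was 0.0153% of the adult level in the first day 20 library and 0.114% in the second, and 0.0298% and 0.141% in the CD organoid libraries. For comparison, Atp6v1g3 was at 0.0480% and 0.157% of the adult level, Atp6v0d2 at 0.0458% and 0.174%, and Atp6v0a4 at 0.0849% and 0.172% in those day 20 libraries. The part of stray adult transcripts in these day 20 levels was not tested. Atp6v1c2 was at 0.538% and 1.04%, and all 5 IC isoforms lay above the median of the 13 genes in both libraries. The upper quartile of the 13 was 0.0494% and 0.166%, and Atp6v1g3 lay below it in both libraries and Atp6v0d2 in the first.

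Between day 5 and day 10, Atp6v1c2 was the sole isoform called (2 and 1 reads against 10 and 28, a ratio of 11.5 with an exact interval of 3.66 to 58.4), where 2.34% of all genes were called higher, and this call ended without either library of day 5 or without the second of day 10 (adjusted p of 0.0155, 0.0283 and 0.0296). Atp6v1b2 and Atp6v1g1 fell to 0.772 and 0.784 times over those days (edgeR adjusted p of 0.00101 and 0.00210), where 32.7% of all genes changed at the looser rule. Between day 10 and day 20, Atp6v1b1 was called at 11.8-fold and Atp6v1g3 was called too, where 1.66% of all genes were called higher, and the call of Atp6v1g3 ended without the second library of day 20 (edgeR adjusted p = 0.0755), without either library of day 10 (0.0176 and 0.0177) and without the first adult library. Atp6v0a1 rose by 1.89-fold in that interval (edgeR adjusted p = 9.39e-06), the largest fold change of a ubiquitous isoform during UB culture. Atp6v1g1 rose by 1.45-fold, Atp6v1c1 by 1.26-fold and Atp6v0d1 by 1.17-fold between day 10 and day 20, with edgeR adjusted p of 0.000116, 0.00539 and 0.0188, where 29.0% of all genes changed.

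The V-ATPase subunit genes outside the pairs were read from a list of 15 genes. Of these, 14 could be tested, and Atp6v1e2 was at 0 in day 20, CD organoid and adult mCD libraries. The list mixes subunits without a listed IC form with further isoforms of the paired subunits, Atp6v0a2 and Tcirg1 for a and Atp6v1g2 for G. In CD organoids 13 of the 14 were higher than at day 10 at the looser rule, where 22.1% of all genes were. Of the 14, 4 were called higher, where 4.96% of all genes were, and the median log2 fold change was 1.73 beside -0.15 over all genes. The called genes were Atp6v1a, the catalytic subunit of V1 (2.67), Atp6v0c (2.90) and Atp6v0b (2.14), which form the proton-carrying ring, and the small V0 subunit Atp6v0e (2.18). Against the same day 10 libraries the median was 0.85 for the 5 ubiquitous isoforms, and the smallest value among the IC isoforms was the 7.43 of Atp6v1c2.

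Of these subunits Atp6ap2, Atp6v1f and Atp6v1a had the highest mean RPKM over the 10 libraries on the deposited length, whereas with principal transcript lengths Atp6v1e1 stood above Atp6ap2 (196 against 97.4 RPKM in CD organoids). Atp6v1a, which works with B in the head of V1, went from 10.9 ± 0.126 RPKM at day 20 to 64.9 ± 3.66 in CD organoids and 101 ± 1.61 in adult mCD (SD, n = 2). The accessory subunit Atp6ap2 stood at 36.8 ± 1.95, 77.1 ± 0.582 and 109 ± 0.305 RPKM, and the rotor subunit Atp6v1f at 23.8 ± 0.451, 45.2 ± 2.57 and 113 ± 3.52 RPKM, in the same groups. Against day 20, 13 of the 14 were higher and 1 lower in CD organoids and 12 higher and 1 lower in adult mCD, and the lower 1 was Atp6v0e2 in both (log2 -0.45 and -1.10). At the looser rule used for these counts, 42.2% and 56.4% of all genes changed in either direction. Called in adult mCD against day 20, where 12.3% of all genes were called higher, were Atp6v1a (3.25), Atp6v1f (2.28), Atp6v1h (2.12) and Atp6v0e (2.24). Between CD organoids and adult mCD none of the 14 was called, 3 were higher and 6 lower at the looser rule, where 49.9% of all genes changed, and with libraries scaled by totals the counts were 6 higher and 3 lower, so the balance of directions hung on the scaling. Tcirg1, the a subunit of osteoclasts, was 2.02-fold higher in CD organoids than in adult mCD (log2 1.02, edgeR adjusted p = 2.02e-06).

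**Figure D5:**
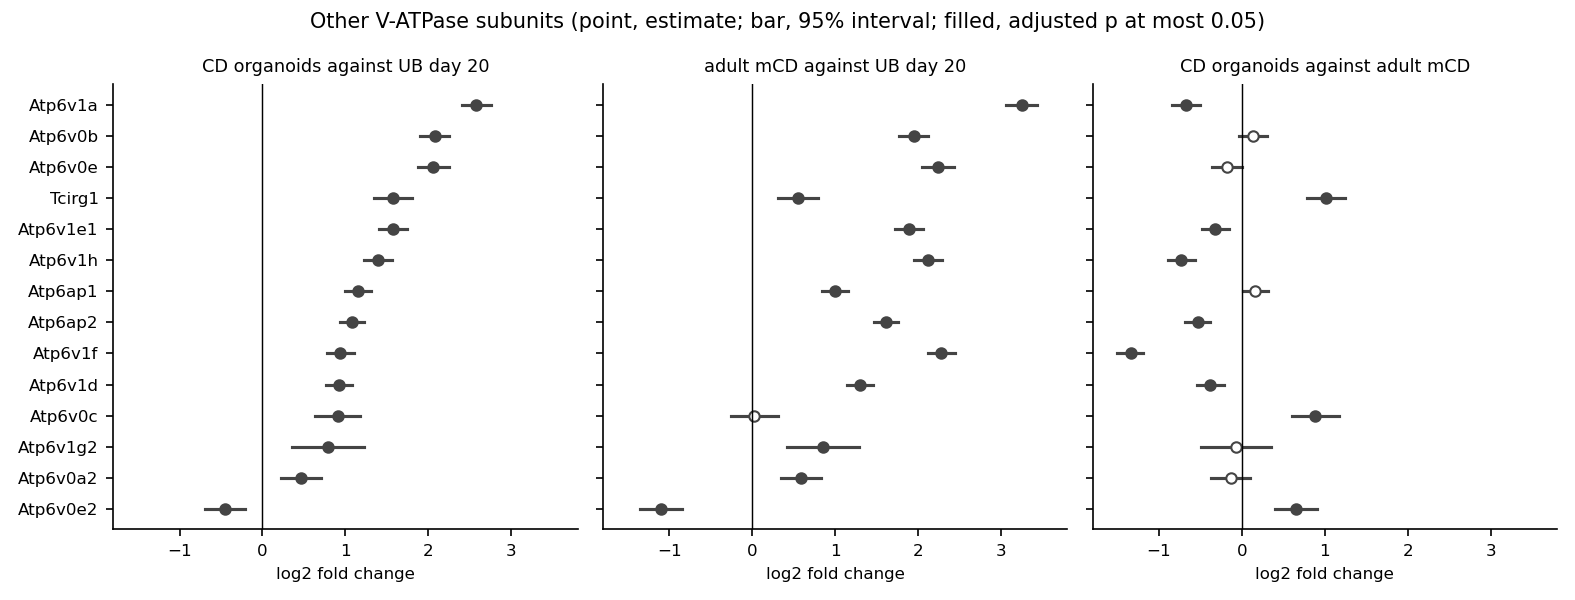
Log2 fold change (point) with its 95% interval (bar) for the 14 tested V-ATPase subunits outside the pairs, in 3 comparisons, with filled points at an edgeR adjusted p of at most 0.05. Atp6v1a leads both comparisons with day 20 at 2.58 and 3.25, Atp6v0e2 is below 0 in both, and in CD organoids against adult mCD the values spread from -1.34 to 1.02.

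Of 11 measured assembly and regulatory factors of the pump 8 were higher and 1 lower in CD organoids than at day 10 at the looser rule, where 22.1% of all genes were higher, with a median log2 fold change of 0.92. Against day 20, 4 were higher and 1 lower, where 42.2% of all genes changed in either direction, and the median was 0.10. Tldc2, a TLDc domain protein of the family that binds the pump, was the sole called gene, at 9.40 CPM in CD organoids, 38.5 in adult mCD and 0.0365 at day 10, and its CD organoid level was also called below that of adult mCD (log2 -2.03, edgeR adjusted p = 4.65e-06). Rogdi, Tldc2 and Rnasek were called higher in adult mCD than at day 20, where 12.3% of all genes were called higher. Summed over the libraries of a group, Rnasek, which overlaps Gm21988, had only 28 reads in adult mCD and 5 at day 20. Tldc2 had 998 and 3. Of 27 lysosomal genes, which share the ubiquitous isoforms with ordinary acidic compartments, 23 were higher and 2 lower in CD organoids than at day 10. Their median log2 fold change was 0.89, beside 0.85 for the ubiquitous isoforms. Against day 20 these medians lay apart, at 0.58 and 0.02, with 20 lysosomal genes higher and 3 lower. Mitf (2.74), a transcription factor of lysosomal genes, and the protease Ctsd (2.65) were among those with the largest log2 fold changes.

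Among 16 IC genes 12 were called higher in CD organoids than at day 10, where 4.96% of all genes were called higher. At the looser rule 15 were higher, where 22.1% of all genes were, and the median log2 fold change of the 16 was 3.78. The largest fitted fold changes were those of Slc4a9, a bicarbonate transporter of ICs, Dmrt2, a transcription factor of acid-secreting ICs, and Insrr, an alkali sensor. None of the IC isoforms was called in CD organoids against adult mCD, where 14.3% of all genes were called. Of the 16 IC genes 8 were called lower there and 1 higher. Those lower included Slc4a1, the chloride-bicarbonate exchanger of acid-secreting ICs, at 2.78 and 2.25 CPM against 545 and 530 CPM. Slc4a9 stood at 482 and 500 CPM in CD organoids and 514 and 554 CPM in adult mCD.

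The profile shared by the 5 IC isoforms was compared with that of 11832 genes over the 10 libraries, as the root mean square difference of centred log2(CPM + 1) values. The 10 closest genes outside the pairs were Insrr (0.246), Adh1 (0.454), Tspan8 (0.477), Adgrf5 (0.534), Acss1 (0.605), Serpinb6b (0.652), Slc4a9 (0.656), Hepacam2 (0.657), Ly6a (0.706) and Fxyd4 (0.723). Only the last, Fxyd4, is a principal cell gene in the marker lists used. The profile is the mean of the IC isoforms, so their own closeness to it is fixed by construction, and they lay at 0.199 (Atp6v1g3), 0.310 (Atp6v0d2), 0.337 (Atp6v0a4), 0.495 (Atp6v1b1) and 0.585 (Atp6v1c2). The ubiquitous isoforms lay at 3.01 (Atp6v0d1), 3.22 (Atp6v1c1), 3.49 (Atp6v1b2), 3.56 (Atp6v1g1) and 3.69 (Atp6v0a1), at ranks from 1323 to 5163 of 11832, and the median over all genes compared was 3.76. The likeness is a description over 10 libraries that fall into few groups.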

How the data were processed

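RNA-seq of 10 mouse libraries (5 groups of 2) was analysed from 1 table of 39273 genes. The authors deposited raw counts per gene, RPKM, TMM-normalized signal values (each library scaled to a common total) and a gene length in base pairs. Per the labels, the submitters' processing notes name FastQC 0.11.8, cutadapt 2.5, Trimmomatic 0.36, STAR, edgeR 3.28.1 and GRCm38.p6, while the study's methods name Partek Flow with its E/M quantification and a stranded KAPA kit where the labels name TruSeq. Which of these made the table, and the strand setting of the counting, are not given in the sources used here. The deposited length equalled the summed exons of all annotated transcripts plus 1 base for each exon in 99.9% of 38482 genes compared with GENCODE M21, so RPKM of genes with many transcripts is understated. Zero counts carry values just above 0 in part of the deposited TMM-normalized columns, which were used in 1 alternative only.

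Counts were tested with edgeR 4.0.16 in R 4.3.3 (quasi-likelihood test, TMM factors of 0.792 to 1.12, prior count 1) in 1 fit over the 10 libraries. Genes with at least 10 reads in all were kept (24410), and p-values were adjusted by Benjamini-Hochberg over them. Calls required more than 4-fold and an adjusted p no higher than 0.01. The script was tested on simulated data. Pair shares were taken from the authors' RPKM and compared by two-sided exact permutation tests. Intervals and the floor of 3 reads cover counting error only. Replicates of a group differed beyond counting noise, with a chi-square of 2.72 to 25.4 per gene.

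The members, lists and tests were chosen with earlier results of these data known. All 10 members are named. Other subunits and assembly factors are named where called in CD organoids against day 10 or adult mCD, or in adult mCD against day 20, with the 3 subunits of highest mean RPKM, and lysosomal and IC genes are named for the 3 largest fold changes against day 10, of which 1 lysosomal gene is not reported here. Atp6v0e2, Tcirg1, Foxi1, Slc4a1, the macrophage genes and the later values of Slc4a9 were chosen after their values were seen. Alternatives used DESeq2 1.42.0, limma 3.58.1, other scalings, filters, prior counts and lengths, fewer samples, a replicate block and each library left out.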

Additional observations from a re-analysis of the deposited data

How the results depend on the processing

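The calls of the 5 IC isoforms in CD organoids and adult mCD against UB organoids, and the absence of calls between CD organoids and adult mCD, were the same under every alternative that kept the threshold. With the looser threshold of 0.05 and no minimum fold, the members counted were 10 for CD organoids against day 10, 8 against adult mCD, 10 for adult mCD against day 20, and 9, 3 and 8 for day 20 against day 5, day 10 against day 5 and day 20 against day 10. These last 3 comparisons had 4, 1 and 2 calls, which became 2, 0 and 1 with a prior count of 5, which shrinks fold changes at low counts. They were also 2, 0 and 1 with only the 4 samples compared, where Atp6v1g3 and Atp6v0d2 (day 20 against day 5) and Atp6v1g3 (against day 10) fell under the filter on low counts and were not tested. Leaving out 1 library gave 2 to 5, 0 to 1 and 1 to 2 calls.

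Correlations of replicate differences between groups ran from -0.258 (UB organoids of day 10 and day 20) to 0.0842 over 10121 genes. A block of equal replicate numbers left the counts at 5, 5, 0, 5, 4, 1 and 2. Pairs that cross the replicate numbers were not tested, so these values cannot decide whether samples were paired.

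Against UB organoids of day 20 alone, an alternative chosen after seeing the data, pair share differences were 73.1 (B), 59.4 (C), 56.5 (G), 53.8 (d) and 79.4 (a) percentage points, with exact p = 0.0667, the smallest 4 against 2 libraries allow. Leaving out 1 library gave 73.5 to 75.5, 58.5 to 62.3, 54.6 to 58.6, 52.3 to 55.8 and 75.6 to 84.1 points.

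Signs turned for small differences. Atp6v1b2 in CD organoids against day 20 was -0.04 by library totals and by limma, -0.02 without a filter, and -0.02 to 0.06 with 1 library left out. Atp6v1c2 in CD organoids against adult mCD was 0.26 by totals and limma. Atp6v1g1 was 0.16 there and -0.24 in adult mCD against day 20 by both, and -0.08 to 0.02 in CD organoids against day 20 with 1 library left out. Atp6v0d2 in CD organoids against adult mCD was -0.01 by DESeq2 size factors and the DESeq2 test. Atp6v0a1 in CD organoids against day 20 was -0.06 to 0.01 with 1 library left out, and 0.00 without the second CD organoid library.

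Library totals moved the median log2 fold change of all genes from 0.00 to 0.34 in CD organoids against adult mCD and from -0.06 to -0.47 in adult mCD against day 20. Genes called higher and lower went from 1098 and 2401 to 1607 and 2010, and from 3005 and 1683 to 2469 and 2420. Depth limits the IC isoforms in UB organoids, most of which rest on fewer than 10 reads a library.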
